A study of Mus musculus with 16 samples.

Results

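Dcn, Lum, Fbn1, Pdgfrb, Thy1, Fap, Postn, Twist1, Twist2 and Fstl1 are 10 genes widely used as markers of fibroblasts, and their messenger RNA was read here on each of 16 arrays of mouse pluripotent stem cell lines. They were chosen by name and found through the RefSeq accession of their array probes, with 1 probe for each gene. They are 10 of the 20972 genes that could be named on the array, and all 10 were among the 15517 genes tested. A gene was tested if its probe was well above background, as judged by the scanner software, on all 4 arrays of at least 1 group. Dcn, Lum, Fap and Postn passed only through EpiSC arrays, and Fbn1 and Twist2 only through EpiSC and LIF_serum arrays, so these 6 could hardly come out without a difference.

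All lines were of strain 129/Ola, 1 array for each line and 4 lines in each of 4 groups. EpiSC lines were derived from the epiblast of E6.5 embryos, grown with Activin A and bFGF and described as primed, at passages 24, 24, 24 and 28. The 2i_LIF lines (ground state, passages 24, 22, 23 and 22) and the 2iSB_LIF lines (ground state, passages 22, 17, 19 and 24) came from pre-implantation embryos. Both were grown with the cytokine LIF and the inhibitor pair called 2i, which blocks the kinases MEK and GSK3. For 2iSB_LIF lines SB431542 was added, an inhibitor of the Activin, Nodal and TGF-beta receptors. LIF_serum lines, described as naive, came from pre-implantation embryos and were grown with LIF and serum. In LIF_serum, arrays 1 and 2 (passages 23 and 24) are marked LS in their descriptions, and arrays 3 and 4 (both passage 26) are marked LSFF. Neither code is explained in the labels. The labels name no feeder cells and no array of fibroblasts alone.

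Fibroblasts build the collagen-rich matrix of connective tissue and are recognised by the matrix proteins they secrete, by surface receptors and by mesenchymal transcription factors. Growth-arrested embryonic fibroblasts are often laid under mouse pluripotent cells as feeders, and their RNA is then extracted together with that of the stem cells. Stem cells that leave pluripotency towards mesoderm can switch on many of the same genes. The question asked of the 10 markers was how much fibroblast-type RNA each array holds, in EpiSC arrays, in ground-state arrays, in LIF_serum arrays 1 and 2 and in LIF_serum arrays 3 and 4. In RNA of whole cultures, fewer cells of a type and less of its RNA per cell cannot be told apart.

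Promoters of 5 of the 10 genes were in the RefSeq table used (build GRCm38.p6), as windows of 250 bases before to 50 bases after a transcription start. Those of Fbn1, Postn and both Twist genes are shown because Fbn1 and Postn moved together between the serum arrays while the related Twist1 and Twist2 did not follow 1 pattern. They lie at chr2:125506389-125506688 (Fbn1, minus strand), chr3:54359017-54359316 and chr3:54360857-54361156 (Postn, plus strand, 2 starts), chr1:91801211-91801510 (Twist2, plus strand) and chr12:33957421-33957720 (Twist1, plus strand). Each is written 5′ to 3′, and capitals mark the dinucleotide CG.
Fbn1: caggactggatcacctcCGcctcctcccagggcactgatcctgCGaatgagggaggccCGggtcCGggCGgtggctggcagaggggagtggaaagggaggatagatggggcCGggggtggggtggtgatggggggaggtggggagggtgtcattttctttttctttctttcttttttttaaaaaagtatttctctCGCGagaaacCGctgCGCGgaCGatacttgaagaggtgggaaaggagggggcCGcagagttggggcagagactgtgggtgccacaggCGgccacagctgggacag
Postn, first start: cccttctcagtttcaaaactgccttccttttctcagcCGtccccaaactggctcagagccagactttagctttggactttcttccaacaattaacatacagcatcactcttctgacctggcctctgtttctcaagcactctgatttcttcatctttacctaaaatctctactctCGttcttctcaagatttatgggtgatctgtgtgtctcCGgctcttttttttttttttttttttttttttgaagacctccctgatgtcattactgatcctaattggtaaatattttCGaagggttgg
Postn, second start: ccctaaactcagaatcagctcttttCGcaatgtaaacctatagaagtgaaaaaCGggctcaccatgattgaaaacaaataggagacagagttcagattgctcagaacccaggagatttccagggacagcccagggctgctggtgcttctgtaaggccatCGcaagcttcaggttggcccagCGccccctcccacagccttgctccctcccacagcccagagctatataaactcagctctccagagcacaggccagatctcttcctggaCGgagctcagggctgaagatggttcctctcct
Twist2: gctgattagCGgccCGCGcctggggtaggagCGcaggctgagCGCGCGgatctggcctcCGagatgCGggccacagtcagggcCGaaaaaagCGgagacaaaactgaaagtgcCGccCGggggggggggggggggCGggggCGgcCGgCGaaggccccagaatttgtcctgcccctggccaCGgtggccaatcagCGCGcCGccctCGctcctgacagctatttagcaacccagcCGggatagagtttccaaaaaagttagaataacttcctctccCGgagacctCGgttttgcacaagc
Twist1: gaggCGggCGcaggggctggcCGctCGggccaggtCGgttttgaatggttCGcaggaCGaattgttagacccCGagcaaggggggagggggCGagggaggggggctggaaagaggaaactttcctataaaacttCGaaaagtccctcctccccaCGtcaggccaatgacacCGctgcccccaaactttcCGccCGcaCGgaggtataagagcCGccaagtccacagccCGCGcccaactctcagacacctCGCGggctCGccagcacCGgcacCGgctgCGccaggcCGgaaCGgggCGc

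The letters CG occurred 25 times in the Twist2 window and 27 times in the Twist1 window, against a median of 7 in all 32851 promoters of that table. Only 16.9% and 14.2% of promoters held more. The Fbn1 window held 14, and the 2 Postn windows held 4 and 5, which 62% and 56.4% of promoters exceeded. The motif TATAAA was counted on both strands. It occurred once in the second Postn window (from base 225 of 300) and once in the Twist1 window (from base 125). Both sites lie on the gene's strand, while the 13.6% of all promoters that hold the motif may hold it on either strand. The motif CANNTG, which pairs of bHLH proteins such as the Twist factors can bind, was present in 72.3% of all promoters and, among the windows shown, only in that of Fbn1, once. It is its own reverse complement, so both strands are covered. Counts of letters describe these windows and were not tested against the array values.

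The share of probes well above background was 51.5% to 63.8% per array, without any saturated probe, and precision is limited by the number of arrays. Of the 2 slides, slide 2 carried each EpiSC array, LIF_serum arrays 3 and 4, 2i_LIF array 4 and 2iSB_LIF array 3, and slide 1 carried the remaining 8. LIF_serum arrays stood apart in pairs before any marker was read: arrays 1 and 2 correlated at 0.991, arrays 3 and 4 at 0.995, and arrays of different code at 0.956 to 0.966. The code thus coincides with slide and with passage. Results on LIF_serum are therefore given over all 4 arrays and for each code. Levels below are on a log2 scale, as processed signal relative to the 75th percentile of its array, so that 0 is the level of the probe at that percentile.

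**Figure D1:**
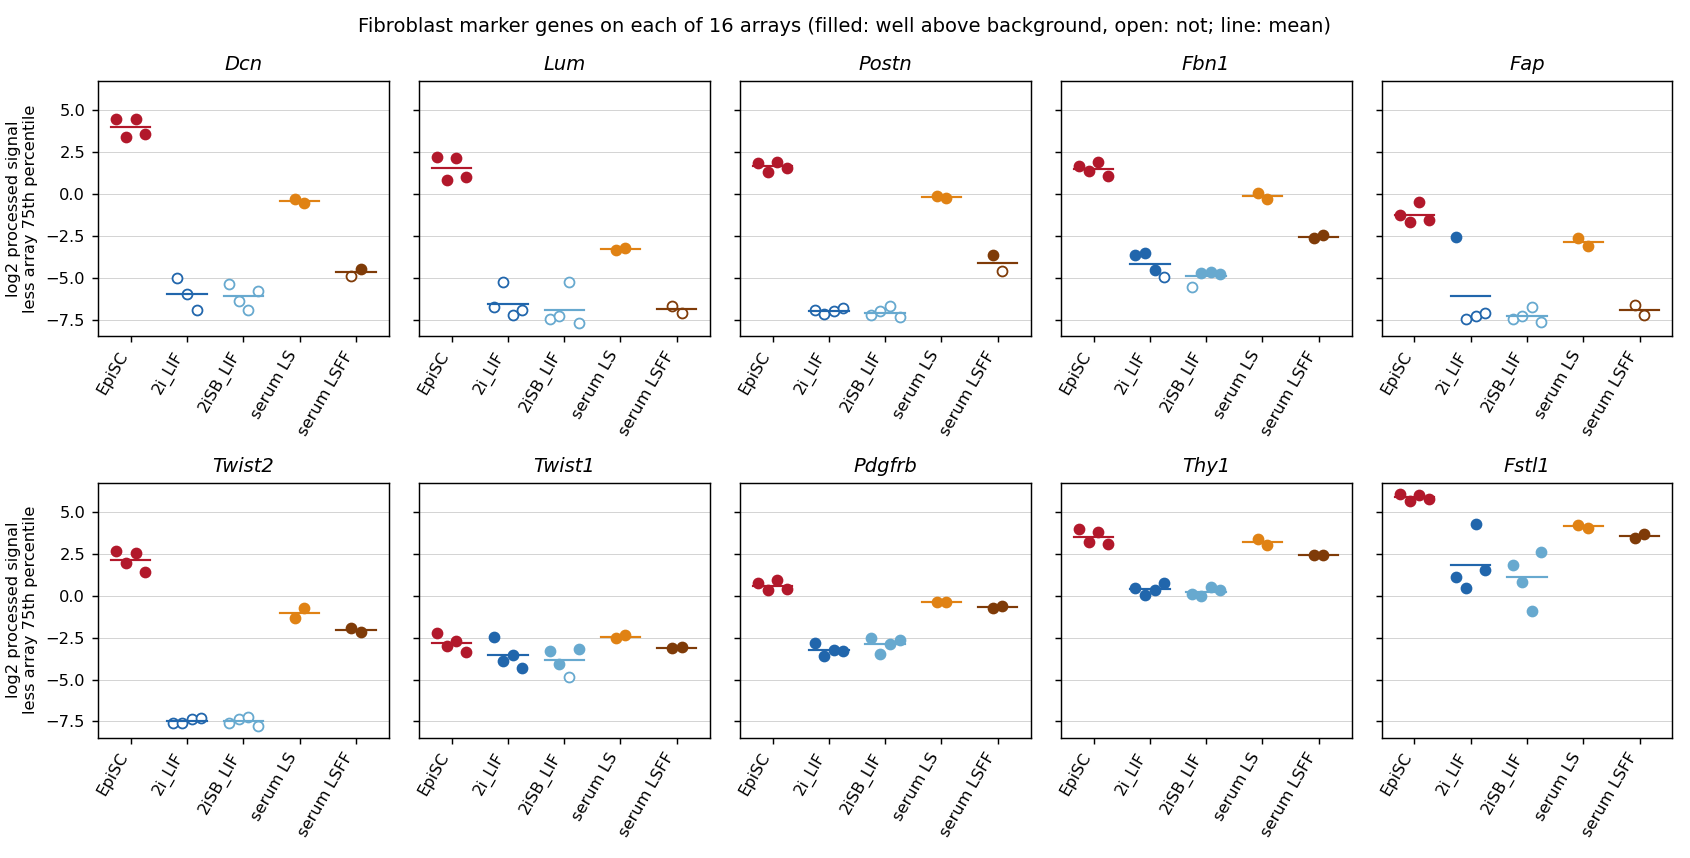
Levels of the 10 fibroblast marker genes on each of 16 arrays (log2 processed signal relative to the 75th percentile of its array). Each point is 1 array, filled where the probe was well above background, and the short line is the group mean. EpiSC arrays lie above all other arrays for Dcn, Lum, Postn, Fbn1, Fap, Twist2, Pdgfrb and Fstl1, and LIF_serum LS arrays lie above LSFF arrays for each of the 10 genes (with median centring the Pdgfrb mean is lower on LS arrays).

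The small leucine-rich proteoglycans, which bind collagen fibres and shape their assembly, had the largest differences between EpiSC and LIF_serum lines among the 10 markers. Dcn (decorin, which also binds TGF-beta) had levels of 4.51, 3.42, 4.50 and 3.61 on EpiSC arrays 1 to 4. On ground-state arrays it lay between −6.90 and −5.00 in 2i_LIF (3 arrays, since its spot on array 2 was marked as an outlier) and between −6.89 and −5.33 in 2iSB_LIF, never well above background. LIF_serum arrays 1 and 2 had −0.29 and −0.51, and arrays 3 and 4 had −4.89 and −4.46, of which only array 4 was well above background. Dcn was thus highest on EpiSC arrays, in between on LS arrays, and at or near background on the LSFF and ground-state arrays, which are not ranked here.

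Lum (lumican) lies next to Dcn on chromosome 10 and followed it. Its levels were 2.22, 0.83, 2.15 and 1.05 on EpiSC arrays. In 2i_LIF it lay between −7.21 and −5.27 and in 2iSB_LIF between −7.68 and −5.23, against −3.34 and −3.23 on LS arrays and −6.65 and −7.12 on LSFF arrays. It was well above background on the EpiSC and LS arrays and on none of the other 10. The leucine-rich proteoglycan genes Kera and Epyc, which lie beside Lum in the annotation, were counted well above background on 0 arrays. A gene without a named probe would have the same count.

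Postn (periostin, a matricellular protein of collagen-rich and remodelling tissue) had levels of 1.89, 1.33, 1.90 and 1.53 on EpiSC arrays. All 8 ground-state arrays lay between −7.35 and −6.70, none well above background, against −0.12 and −0.26 on LS arrays and −3.62 and −4.57 on LSFF arrays. Fbn1 (fibrillin-1, the core of extracellular microfibrils) had 1.70, 1.36, 1.94 and 1.08 on EpiSC arrays. Unlike Dcn, Lum and Postn it stayed measurable in ground state, well above background on 3 of 4 arrays in each group, at −4.97 to −3.53 in 2i_LIF and −5.53 to −4.64 in 2iSB_LIF. It had 0.09 and −0.29 on LS arrays, and −2.60 and −2.46 on LSFF arrays. For both genes EpiSC, LS and LSFF arrays did not overlap, and the ground-state arrays had the lowest values, although Postn was well above background on 1 of the 2 LSFF arrays.

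Fstl1 (a secreted glycoprotein that can bind TGF-beta family ligands) was well above background on all 16 arrays. Its levels were 6.06, 5.67, 6.04 and 5.77 on EpiSC arrays. Ground-state arrays spread widely, with 1.13, 0.49, 4.30 and 1.56 in 2i_LIF and 1.87, 0.84, −0.89 and 2.61 in 2iSB_LIF. LS arrays had 4.26 and 4.05, and LSFF arrays 3.46 and 3.70. The 2i_LIF array 3 was as high as the serum arrays, and the other 7 ground-state arrays lay below them.

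Among the surface proteins, Fap (fibroblast activation protein, a membrane-bound serine protease) behaved like the dim matrix genes. It had −1.27, −1.67, −0.45 and −1.53 on EpiSC arrays. Of the ground-state arrays, 2i_LIF array 1 had −2.58 and was well above background, and the other 7 lay between −7.66 and −6.72 and were not. LS arrays had −2.63 and −3.08, and LSFF arrays −6.64 and −7.20, the last pair not well above background. The 2i_LIF array 1 thus carried as much Fap signal as the LS arrays.

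Pdgfrb, a receptor for platelet-derived growth factors that drives growth of mesenchymal cells and pericytes, was measured on all 16 arrays. Levels were 0.78, 0.33, 0.93 and 0.41 on EpiSC arrays. They lay between −3.60 and −2.81 in 2i_LIF and between −3.48 and −2.50 in 2iSB_LIF, against −0.39, −0.39, −0.75 and −0.61 on LIF_serum arrays 1 to 4. Here the serum arrays of both codes lay close together, well above ground state and just below EpiSC. Thy1 (CD90, a lipid-anchored surface glycoprotein of fibroblasts that other cell types also carry) had 3.99, 3.21, 3.82 and 3.10 on EpiSC arrays. It lay between 0.06 and 0.76 in 2i_LIF and between −0.03 and 0.51 in 2iSB_LIF, against 3.39, 3.03, 2.45 and 2.42 on LIF_serum arrays. EpiSC and LS arrays overlapped for Thy1, and all serum arrays lay above all ground-state arrays.

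The bHLH transcription factors Twist1 and Twist2, which act in mesoderm and mesenchyme, parted ways. Twist2 had 2.66, 1.96, 2.57 and 1.42 on EpiSC arrays. It lay between −7.58 and −7.29 in 2i_LIF and between −7.77 and −7.24 in 2iSB_LIF, on no array well above background, against −1.34, −0.74, −1.94 and −2.18 on LIF_serum arrays. The Twist2 groups did not overlap, apart from the 2 ground-state groups. Twist1 lay below the 75th percentile on every array, with −2.19, −3.02, −2.70 and −3.33 in EpiSC. In 2i_LIF it had −2.44, −3.88, −3.55 and −4.33, in 2iSB_LIF −3.31, −4.07, −4.87 and −3.14, and in LIF_serum −2.53, −2.33, −3.14 and −3.03. EpiSC, LIF_serum and 2i_LIF arrays overlapped for Twist1. It was called in no comparison below over all arrays with 75th percentile scaling and no block, but in 4 of them with the slide as a block.

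The comparison of EpiSC with LIF_serum lines asks how far marker RNA in primed cultures exceeds that in serum cultures. Calls required at least a 2-fold difference in limma with a Benjamini-Hochberg adjusted p under 0.05 over all genes tested. Of the 10 markers 8 were higher in EpiSC and 0 lower, against 18.0% of all genes tested that were called higher. In 8 of 10 every EpiSC array lay above every LIF_serum array, as it did in 32.8% of all genes. The median log2 difference of the 10 was 3.25, against 0.07 over all genes. Dcn was higher by 6.55 (SE 0.92, adjusted p = 4.4e-05, n = 4 arrays a group) and Lum by 6.65 (SE 0.85, adjusted p = 1.3e-05). Twist2 was higher by 3.70 (SE 0.31, adjusted p = 1.8e-07), with the smallest error of the large differences. Postn (3.81, SE 0.75), Fap (3.66, SE 1.09), Fbn1 (2.84, SE 0.54) and Pdgfrb (1.14, SE 0.22) were also higher, with adjusted p of 6.4e-04, 0.011, 4.9e-04 and 6.1e-04. Fstl1 was higher by 2.02 (SE 0.74, adjusted p = 0.032), but with any 1 array other than LIF_serum array 1 left out of these 2 groups the adjusted p lay between 0.0505 and 0.072. Thy1 differed by 0.71 (SE 0.26, adjusted p = 0.031), which is under 2-fold, and Twist1 by −0.05 (SE 0.42, adjusted p = 0.92), or by 0.24 to 0.48 under 3 other scalings. With the slide as a block 8 of 10 were called as well, as were 33.7% of all genes in either direction.

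The size of these differences depended on the code of the serum arrays, since the spread within LIF_serum holds both. With EpiSC arrays set against LSFF arrays, which share slide 2, 8 of 10 markers were higher (18.2% of all genes), and the median difference was 4.13. Dcn was then higher by 8.69 (SE 0.52, 1 of 2 LSFF arrays well above background), and Lum by at least 77.6-fold when the dim arrays are held at their background floor. That bound holds for the main setting only, since the log2 difference of Lum fell to 4.994 over other settings. Against LS arrays, which lie on the other slide, 5 of 10 were higher (17.8% of all genes): Dcn by 4.41 (SE 0.52), Lum by 4.85 (SE 0.66), Twist2 by 3.19 (SE 0.30), Postn by 1.85 (SE 0.26) and Fbn1 by 1.63 (SE 0.39). Pdgfrb differed by 0.999 (SE 0.27), just short of 2-fold, Fap by 1.63 (SE 1.01) and Thy1 by 0.32 (SE 0.27). With the slide as a block 7 of 10 were called against LS arrays (29.3% of all genes in either direction), with Pdgfrb at 1.05 and Fstl1 at 3.27 added, and 9 against LSFF arrays (35% of all genes), with Fstl1 at 2.31 added. Leaving out EpiSC array 2 or 4 took Pdgfrb past 2-fold against LS arrays (1.09 and 1.07), and leaving out EpiSC array 1 or 3 took Thy1 below it against LSFF arrays (0.94 and 0.999), where all arrays gave 1.096. Both comparisons use the same EpiSC arrays.

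The next comparison asks how much marker RNA remains in ground-state cultures. In 2i_LIF lines 6 of 10 markers were lower than in LIF_serum and 0 higher, against 12.1% of all genes called lower, and the same number did not overlap, against 14.1% of all genes. In 2iSB_LIF lines 7 of 10 were lower, against 13.3% of all genes, and 8 did not overlap, against 15.4%. Both ground-state groups are set against the same LIF_serum arrays. Twist2 was lower by at least 12.1-fold in 2i_LIF and at least 12.8-fold in 2iSB_LIF, with the dim arrays held at their background floor, and Postn by at least 8.05-fold and 8.53-fold. On this scale Dcn was lower by at least 5.48-fold (3 arrays in 2i_LIF) and 6.48-fold. The adjusted p-values in limma were 1.9e-08 and 1.7e-08 for Twist2, 3.1e-04 and 2.2e-04 for Postn, and 0.019 and 0.0093 for Dcn. The bounds of all 3 genes hold for the main setting only. Over other settings the log2 difference of Twist2 shrank to −2.51 in 2i_LIF and −2.57 in 2iSB_LIF. That of Postn shrank to −1.9999 and −2.115, and neither gene changed direction. The Dcn calls did not hold under every setting: with the authors' log2 values the Dcn difference was −1.03 in 2i_LIF (adjusted p = 0.47) and −2.37 in 2iSB_LIF (adjusted p = 0.083). With normexp background correction it was −1.40 in 2i_LIF (adjusted p = 0.056), and without 2i_LIF array 4 its adjusted p there was 0.068.

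Of the markers measured on most arrays of every group, Pdgfrb was lower with a log2 difference of −2.70 in 2i_LIF and −2.34 in 2iSB_LIF (SE 0.22 each), and Thy1 with −2.42 and −2.59 (SE 0.26 each). Fbn1 was lower with −2.83 and −3.60 (SE 0.54 each). Fstl1 was lower in 2iSB_LIF at −2.76 (SE 0.74, adjusted p = 0.011) and stood at −1.99 in 2i_LIF (SE 0.74, adjusted p = 0.055). Without 2i_LIF array 3 the Fstl1 difference in 2i_LIF was −2.80, with an adjusted p of 0.0036. In 2iSB_LIF the Fstl1 call was lost with passage number in the fit (−1.97, adjusted p = 0.18). Lum (adjusted p of 0.22 and 0.11), Fap (0.44 and 0.11) and Twist1 (−0.79 and −1.09) were not called. Lum and Fap were not well above background on the LSFF arrays of LIF_serum either. Single arrays moved some of these: without LIF_serum array 4, Lum (adjusted p = 0.035) and Fap (0.045) passed in 2iSB_LIF, and Twist1 passed in 2iSB_LIF without its array 1 (−1.27) or 4 (−1.32) and in 2i_LIF without its array 1 (−1.16).

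Since the ground-state and LIF_serum groups span both slides, the slide could enter the fit as a block. With it 8 of 10 markers were called lower in 2i_LIF and 9 in 2iSB_LIF, as were 18.7% and 20.5% of all genes in either direction. Twist1 was then called in both, at −1.04 (adjusted p = 0.025) and −1.33 (adjusted p = 0.0063). Fstl1 was called in 2i_LIF as well, at −2.28 (adjusted p = 0.023), and Fap in 2iSB_LIF (adjusted p = 0.042).

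Within slide 1, where the serum arrays are the LS pair, 7 of 10 markers were called lower in 2i_LIF and 7 in 2iSB_LIF, against 10.9% and 11.3% of all genes in either direction. Within slide 2, where the serum arrays are the LSFF pair, 7 and 8 were called lower, against 27.1% and 32% of all genes. There each ground-state group has 1 array, which is assumed to vary like the other groups. Pdgfrb, measured on every array, stood at −2.83 and −2.48 within slide 1 and at −2.62 and −2.22 within slide 2, and Thy1 at −2.93 and −3.07 within slide 1 and −1.67 and −1.92 within slide 2. Fstl1 was not called in 2iSB_LIF within slide 1 (−2.38, adjusted p = 0.18).

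Set against ground-state lines, EpiSC lines had 9 of 10 markers higher in both cases, and 0 lower. Of all genes tested 20.6% were higher than in 2i_LIF and 20.1% higher than in 2iSB_LIF, and every EpiSC array lay above every ground-state array for 30.1% and 29.3% of all genes, against 9 of the 10 markers. Dcn was higher by at least 513-fold and 606-fold, Twist2 by at least 158-fold and 167-fold, Postn by at least 113-fold and 119-fold, and Lum by at least 104.9-fold and 111-fold. These bounds hold for the main setting only. Over other settings the log2 difference fell to 6.94 and 7.19 for Dcn and to 5.96 and 6.03 for Twist2. For Postn it fell to 4.95 and 5.06, and for Lum to 4.94 and 5.10. Log2 differences of the markers measured in ground state were 5.67 and 6.44 for Fbn1 (SE 0.54), 3.85 and 3.49 for Pdgfrb (SE 0.22), 3.13 and 3.29 for Thy1 (SE 0.26), and 4.01 and 4.78 for Fstl1 (SE 0.74). Twist1 differed by 0.74 and 1.03 (SE 0.42) and was not called. Without 2i_LIF array 1, or with 2iSB_LIF array 1, 2iSB_LIF array 4 or EpiSC array 4 left out, Twist1 passed at 1.11 and at 1.21 to 1.27. All EpiSC arrays lie on slide 2, and with the slide as a block Twist1 was called too, at 1.47 (adjusted p = 0.0054) against 2i_LIF and 1.77 (adjusted p = 0.0015) against 2iSB_LIF. That makes 10 of 10 in both comparisons, beside 35.8% and 35.6% of all genes in either direction. Twist1 also passed with median centring (1.28 and 1.56) and with quantile normalization (1.12 and 1.40).

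Between the ground-state groups, 2iSB_LIF and 2i_LIF, 0 of 10 markers were called by limma, and 0 had an unadjusted p under 0.05. Over all genes 13 were called, 0.0838%, and 866 had an unadjusted p under 0.05. Pdgfrb differed by 0.36 (95% interval −0.12 to 0.84), Thy1 by −0.17 (−0.72 to 0.38) and Fbn1 by −0.77 (−1.93 to 0.40). For Fap (−3.52 to 1.15) and Fstl1 (−2.35 to 0.82) the intervals are wide enough to hold severalfold differences. Dcn, Lum, Postn and Twist2 were not well above background in either group, so no fold is given.

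**Figure D2:**
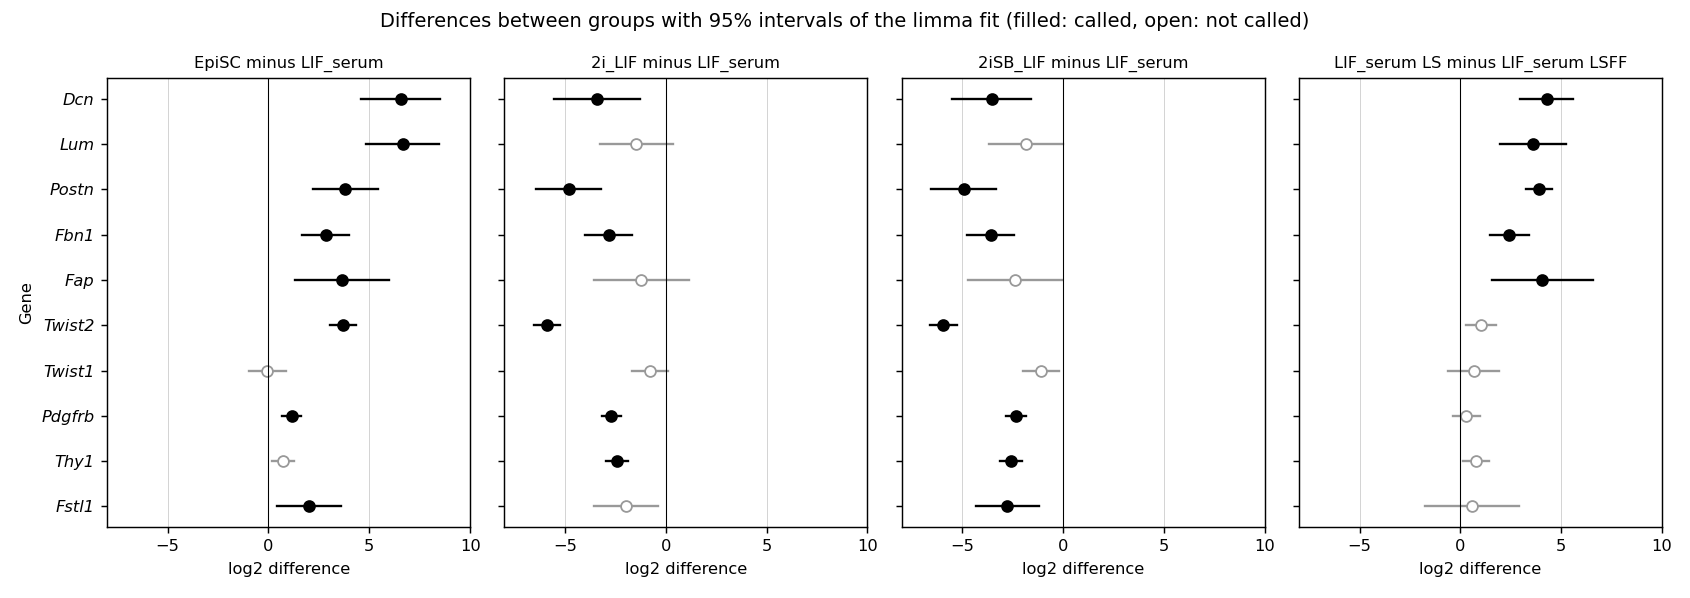
Log2 differences of the 10 markers in 4 comparisons, each point with the 95% interval of the limma fit, filled where called. EpiSC minus LIF_serum differences lie to the right of 0 for all but Twist1, and both ground-state differences lie to the left. In the fourth panel (LS minus LSFF) Dcn, Lum, Postn, Fbn1 and Fap are called, and the interval of Fstl1 runs from −1.73 to 2.88.

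Within LIF_serum, LS arrays carried more marker RNA than LSFF arrays. Of the 10 markers 5 were called higher on LS arrays, Dcn, Lum, Postn, Fbn1 and Fap, and 0 lower. Of all genes 8.46% were called, 5.46% higher and 3.00% lower. All 10 markers had both LS arrays above both LSFF arrays (with median centring the mean of Pdgfrb is lower on LS arrays), as did 34.6% of all genes, and the median log2 difference was 1.72 against −0.07 over all genes. Dcn was higher by 4.27 (SE 0.60, adjusted p = 0.0011), Postn by 3.91 (SE 0.30, adjusted p = 3.5e-06) and Fbn1 by 2.43 (SE 0.45, adjusted p = 0.0047), n = 2 arrays a code in limma. Lum (adjusted p = 0.011) was higher by at least 2.70-fold and Fap (adjusted p = 0.039) by at least 3.63-fold, both LSFF arrays being held at the background floor. These bounds hold for the main setting only: with normexp background correction the log2 differences were 1.16 for Lum and 1.34 for Fap.

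The other 5 markers were not called between the codes. Twist2 differed by 1.02 (SE 0.35, adjusted p = 0.071) and Thy1 by 0.78 (SE 0.31, adjusted p = 0.11). Pdgfrb differed by 0.29 with a 95% interval of −0.39 to 0.97, Twist1 by 0.66 (−0.61 to 1.93) and Fstl1 by 0.58 (−1.73 to 2.88). The interval of Pdgfrb ends below the difference of each of the 5 called genes, while that of Fstl1 includes the difference of Fbn1. Code, slide and passage cannot be told apart by these arrays alone. With the slide as a block, which the ground-state groups allow because they span both slides, 4 of 10 were called, as were 6.29% of all genes, and Fap was not (adjusted p = 0.16). Twist1 and Fstl1 then turned round to −0.54 and −0.96, and neither was called. Fap also missed the threshold with median centring (adjusted p = 0.055), without a filter on dim probes (0.054) and with passage number in the fit (0.066).

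Each LIF_serum array weighed on these calls. With array 1 left out only Dcn and Postn were called (2 of 10), and with array 2, 3 or 4 left out Dcn, Postn and Fbn1 (3 of 10). The left-out pair has 1 array, which is then assumed to vary like the other groups. The differences ranged over 4.06 to 4.49 for Dcn, 3.44 to 4.38 for Postn and 2.24 to 2.62 for Fbn1.

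No array holds fibroblast RNA alone, so a share of fibroblast RNA cannot be computed, and each marker was instead expressed as percent of its own EpiSC mean on the linear scale. The EpiSC mean serves only as a scale, since how much of it is fibroblast RNA was not tested. Readings not well above background enter the medians at their measured value. In ground state the medians were 1.36% to 3.24% on the 4 2i_LIF arrays (9 genes on array 2, where Dcn is missing) and 0.990% to 1.38% on the 4 2iSB_LIF arrays. Thy1 stood at 11.2% of its EpiSC mean in 2i_LIF and 9.96% in 2iSB_LIF, Pdgfrb at 6.98% and 9.07%, and Fbn1 at 2.08% and 1.16%. Fstl1 stood at 11.01% and 5.09%, but its 2i_LIF value rests on array 3 (33.0%) and is 3.67% without it, below that of 2iSB_LIF. Twist1, at 65.1% and 51.8%, was the only marker above 50% in either group. With the floor as a bound, Dcn lay at or under 0.184% and 0.156%, and Twist2 at or under 0.604% and 0.569%. These bounds hold for the main setting only. Over other settings the log2 difference from EpiSC fell to 6.94 and 7.19 for Dcn, and to 5.96 and 6.03 for Twist2.

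On LIF_serum array 1 the 10 percentages ran from 3.06 (Lum) to 116 (Twist1) with a median of 33.9, and on array 2 from 3.29 (Lum) to 134 (Twist1) with a median of 26.9. On array 3 they reached 76.3 (Twist1) with a median of 5.57, and on array 4 82.1 (Twist1) with a median of 5.42. The medians of both LS arrays lay above those of both LSFF arrays, while the range within any 1 serum array was wider than that step.

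As group means, Dcn stood at 4.45% of its EpiSC mean on LS arrays and, with the floor as a bound, at most 0.2681% on LSFF arrays. Lum stood at 3.17% on LS arrays and, with the same bound, at most 1.198% on LSFF arrays. Twist2 stood at 10.6% and 5.12%, the narrowest step among the low markers. Postn (27.3% and 1.92%), Fbn1 (31.9% and 5.88%) and Fap (30.9% and at most 8.57%) formed a middle set on LS arrays. The bounds of Dcn, Lum and Fap hold for the main setting only. Over other settings EpiSC minus LSFF fell to log2 differences of 6.74 for Dcn, 4.994 for Lum and 2.51 for Fap. Fstl1 (30.0% and 20.1%), Pdgfrb (49.3% and 40.3%), Thy1 (78.1% and 45.2%) and Twist1 (125% and 79.2%) lost the least between the codes. On LS arrays 2 markers lay under 10% of the EpiSC mean, 6 between 10% and 50%, and 2 above; on LSFF arrays the counts were 6, 3 and 1.

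**Figure D3:**
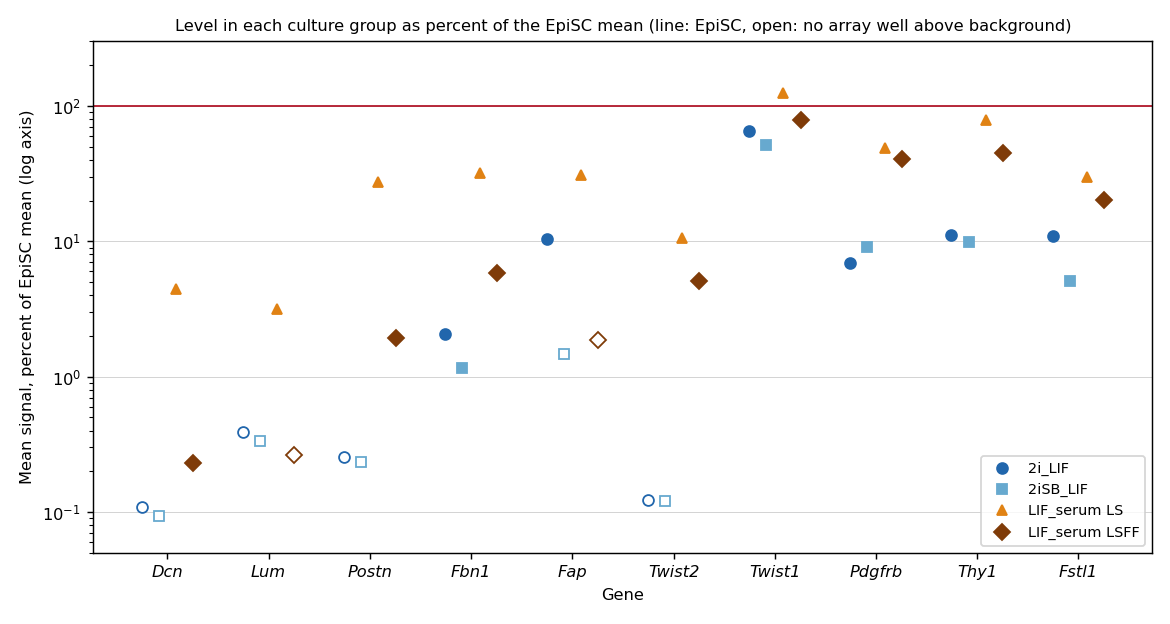
Mean signal of each marker in 2i_LIF, 2iSB_LIF, LIF_serum LS and LIF_serum LSFF as percent of the EpiSC mean of the same gene (log axis; the line at 100% is EpiSC, and open symbols had no array well above background). On LS arrays the markers run from 3.17% (Lum) to 125% (Twist1).

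EpiSC arrays themselves were not alike in marker RNA. Arrays 1 and 3 both lay above arrays 2 and 4 for 10 of 10 markers, and the mean of arrays 1 and 3 exceeded that of arrays 2 and 4 by a median of 0.73 on the log2 scale. The same order held for 20 of 25 other fibroblast genes and for 19.9% of all 15504 genes with a value on each EpiSC array. Summed over the 10 genes on the linear scale, levels were 126, 83.4, 123 and 86.8 on arrays 1 to 4. This order was noticed in the values and has no label behind it, since arrays 1, 2 and 3 share passage 24 and all 4 share a slide.

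Some 25 further fibroblast genes, collagens and matrix enzymes among them, were read beside the 10. In EpiSC 19 of 25 were higher than in LIF_serum (18.0% of all genes) and 0 lower, with a median difference of 2.66. Among the 25, Dpt, Lox, Prrx1 and Col5a2 passed the filter only through EpiSC arrays, so these could hardly come out without a difference. Lox, which cross-links collagen, was higher by 4.77 (SE 1.31), the fibrillar collagen Col3a1 by 4.53 (SE 1.16) and Col5a2 by 4.13 (SE 0.60). In 2i_LIF 16 of 25 were lower than in LIF_serum (12.1% of all genes), in 2iSB_LIF 19 of 25 (13.3%), and 0 were higher in either. On LS arrays 14 of 25 were higher than on LSFF arrays (5.46% of all genes) and 0 lower, with a median of 2.92. S100a4, a calcium-binding protein of fibroblasts and some other cells, was higher by 6.73 (SE 0.84) and Col3a1 by 6.05 (SE 0.43). Lox was higher by at least 23.9-fold, a bound of the main setting. As percent of the EpiSC mean the median of the 25 was 2.45 in 2i_LIF, 2.87 in 2iSB_LIF, 43.3 on LS arrays and 8.004 on LSFF arrays. The medians of the 10 markers over the same groups were 4.53, 1.31, 30.4 and 5.497, the first being 1.64 without 2i_LIF array 1 and 2.97 without array 3. Readings not well above background enter these medians at their measured value. One is Fap in 2iSB_LIF, at 1.47% as measured and 5.90% with the floor as a bound. Another is Fap on LSFF arrays, at 1.86% and 8.57%. These floor bounds hold for the main setting only.

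Partners of the markers moved in part with them. The 28 tested ligands, receptors and binding partners include both Twist genes and Bgn, which is also among the further fibroblast genes. Of the 28, 13 were higher in EpiSC than in LIF_serum (18.0% of all genes) and 1 lower. Tgfbr2, a TGF-beta receptor, was higher by 3.21 (SE 0.39), and Ltbp2, which binds fibrillin microfibrils, by 3.14 (SE 0.81). On LS arrays 5 of 28 were higher than on LSFF arrays (5.46% of all genes) and 1 lower (3.00%). Fmod, a collagen-binding proteoglycan related to Dcn and Lum, was higher by at least 8.57-fold in the main setting. Ltbp2 was higher by 4.17 (SE 0.38) and the proteoglycan Bgn by 3.95 (SE 0.99).

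Markers of other cell types were read beside these results, and their part in them was not tested. Of 10 contractile genes 5 were higher in EpiSC than in LIF_serum (18.0% of all genes) and 0 lower. Among the 5 were Tagln by 1.86 (SE 0.28) and Acta2 by 1.84 (SE 0.53). In 2i_LIF 9 of 10 contractile genes were lower than in LIF_serum (12.1% of all genes), and in 2iSB_LIF 8 of 10 (13.3%). Between LS and LSFF arrays their median was −0.34, with Actg2 higher by 4.58 (SE 0.92) and Tpm1 lower at −1.50 (SE 0.36). Myh11 was higher by at least 1.47-fold in the main setting. The summed level of the 10 contractile genes was 126 to 128 on LS arrays and 207 on both LSFF arrays.

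Of 6 macrophage markers tested, 3 were higher on LS than on LSFF arrays (5.46% of all genes) and 0 lower. The 3 were Lyz2 by at least 4.74-fold and Tyrobp by at least 3.28-fold (both in the main setting), and Fcer1g by 1.44 (SE 0.33). The summed level of the 9 with a probe was 1.60 to 1.80 on EpiSC arrays, 2.88 to 3.93 on LS arrays and 1.56 to 1.67 on LSFF arrays. Of the 9, 8 to 9 were well above background on LS arrays and 3 to 4 on LSFF arrays, and the defining gene Ptprc was so on 2 of all 16 arrays. In EpiSC lines 1 of the 6 was higher than in LIF_serum (Aif1 by 2.48, SE 0.32), beside 18.0% of all genes, and 1 lower (Csf1r at −1.19, SE 0.46).

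The 11 primitive and parietal endoderm markers tested include Pdgfra, which is also among the further fibroblast genes. Of the 11, 5 were higher in EpiSC than in LIF_serum (18.0% of all genes) and 1 lower. In 2i_LIF 6 were lower than in LIF_serum (12.1% of all genes) and in 2iSB_LIF 5 (13.3%), with 0 higher. Between the codes 5 were lower on LS than on LSFF arrays (3.00% of all genes) and 0 higher. Among the 5 were Sox17 at −3.58 (SE 0.77), Col4a1 at −2.95 (SE 0.30) and Col4a2 at −2.14 (SE 0.34). Their summed level was 52.4 to 78.9 on EpiSC arrays, 38.9 to 44.1 on LS arrays and 121 to 125 on LSFF arrays. Of 5 endothelial genes 1 was higher on LS arrays (Kdr by 1.27, SE 0.35), beside 5.46% of all genes. Of 5 skeletal and cartilage genes 0 were called between the codes, beside 8.46% of all genes, with limma adjusted p-values over all genes. In EpiSC 3 of the 5 skeletal and cartilage genes were higher than in LIF_serum (18.0% of all genes) and 1 lower. Those 3 (Sox9, Runx2 and Myod1) passed the filter only through EpiSC arrays, so they could hardly come out without a difference. Sox9, a regulator of cartilage, was higher by 4.23 (SE 0.23). Of the 5 endothelial genes 0 were higher in EpiSC (18.0% of all genes) and 2 lower, Vwf at −5.35 (SE 0.41) and Tek at −1.83 (SE 0.40). The endothelial gene Emcn and the muscle regulators Myog and Myf5 were well above background on 0 arrays. Of 12 pluripotency markers 0 were called between the codes (8.46% of all genes), and all 12 were well above background on each of the 4 LIF_serum arrays. In EpiSC 1 of the 12 was higher than in LIF_serum, beside 18.0% of all genes, and 6 were lower. Of all genes 33.7% were called between EpiSC and LIF_serum in either direction with the slide as a block. The summed level of the 12 markers was 172 to 185 on EpiSC arrays and 351 to 481 on LIF_serum arrays.

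**Figure D4:**
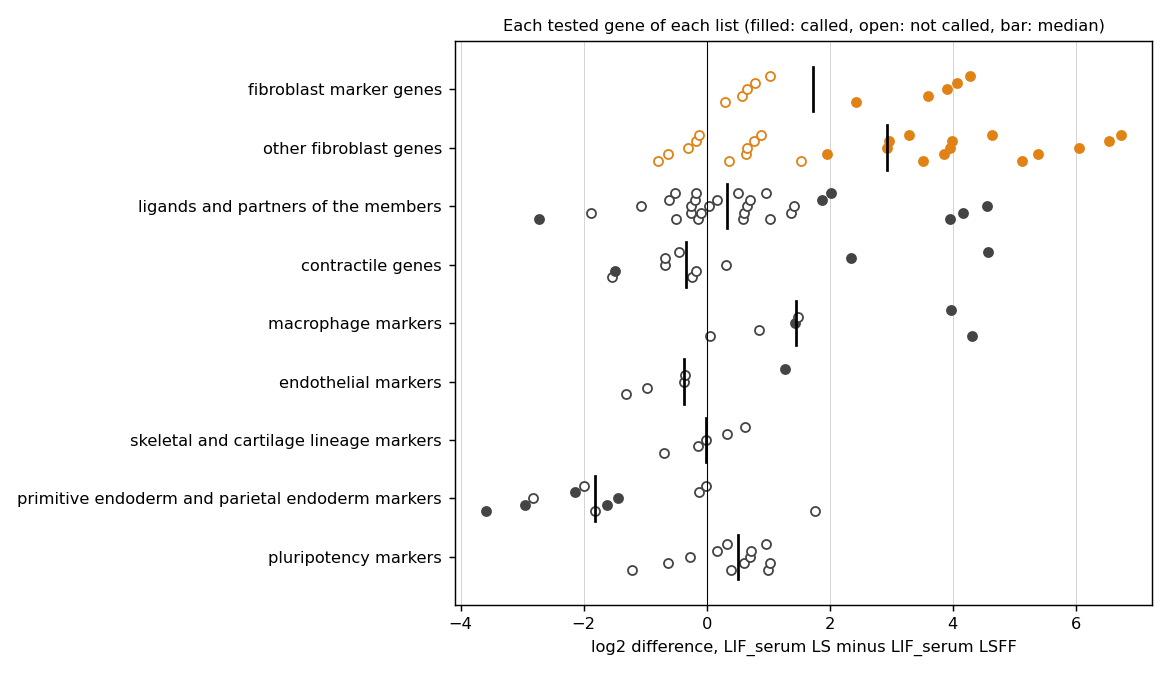
Log2 difference between LIF_serum LS and LIF_serum LSFF arrays for each tested gene of 9 lists, filled where called, with a bar at the median of each list. The 10 fibroblast markers have their median at 1.72 and 25 other fibroblast genes at 2.92, contractile genes lie around −0.34, and primitive and parietal endoderm markers have their median at −1.81.

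The 10 markers also differed in shape across the 16 arrays. By the root mean square difference of gene-centred log2 levels over 16 arrays, Pdgfrb and Thy1 were the closest pair at 0.39, followed by Postn and Twist2 at 0.92, while Dcn and Lum were nearest to each other at 1.19. Fbn1 lay closest to the mean pattern of the 10, at 0.38, and Twist1 farthest, at 2.16. Of all other tested genes with a plain symbol, those most like the mean pattern were Serpinf1 (0.42), which encodes the secreted protein PEDF and belongs to the further fibroblast genes above, Gypc (0.50), Tnfrsf11b (0.50), Edil3 (0.51) and Ldlrad4 (0.51). Serpinf1 averaged 4.68 in EpiSC, −1.32 in 2i_LIF, −1.26 in 2iSB_LIF, 2.99 on LS arrays and 1.04 on LSFF arrays. These arrays share slides and scaling, and the distances are descriptions.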

How the data were processed

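Scanner intensity values were made with Agilent Feature Extraction 10.7.1.1, per the file headers, and its processed signal is background-subtracted but not scaled between arrays. The submitters' processing notes also name limma, and the log2 values that the authors deposited (42316 of 55681 probes, normalization not given in the sources used here) served as an alternative. Log2 processed signal less each array's 75th percentile entered limma 3.58.1 (R 4.3.3, data.table (1.17.8)) as 4 group means and again with LIF_serum split by code. P-values were adjusted by Benjamini-Hochberg over 15517 genes, each by its brightest probe, and the fits were tested on simulated data. Outlier spots (100 to 321 an array) were left missing, with no imputation. Probes were named by RefSeq accession through the GRCm38.p6 annotation (27656 probes with 1 symbol, 28025 unnamed), while the array header names mm9, so no gene coordinates are given beyond the promoter windows. The background floor of an array is its lowest signal well above background (−6.17 to −4.44). Bounds for genes of the other lists are from the main setting only. Named are all 10 markers, up to 3 called genes of each other list that had the largest difference without overlap, other defining markers and the 5 genes nearest to the markers' mean pattern. Markers and lists were chosen with earlier results of these data known. Some genes of the other lists also passed the filter only through EpiSC arrays. The labels give each array as a separate line, so the tests measure the spread between lines. Alternatives were normexp (offset 50, run on median signals since the files hold no mean signal), median centring, quantile normalization, no filter, mean of probes, slide, passage or replicate number in the fit, and leaving out each array.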

Additional observations from a re-analysis of the deposited data

Results flagged for a closer look

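Dixon's test was applied to the 4 arrays of each group for each marker, 39 sets in all, and 3 sets had an array far from the others, where chance gives about 1 in 20. Fap on 2i_LIF array 1 had −2.58, against −7.48 to −7.08 on the other 3 arrays, and it was the only ground-state array on which Fap was well above background. Lum on 2iSB_LIF array 3 had −5.23, against −7.68 to −7.29 on the others, all 4 not well above background. Fbn1 on 2iSB_LIF array 1 had −5.53, against −4.79 to −4.64, and was the one array of that group not well above background. The cause of these values was not tested.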

How the results depend on the processing

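Of 900 log2 differences of single markers recomputed under other settings, 821 kept their direction and side of the threshold, 16 lost their call, 39 became called, and 24 turned round. Of 640 with 1 array left out these numbers were 597, 19, 12 and 12. For EpiSC against LIF_serum LS, median centring called 9 markers (51.9% of all genes) where the main setting called 5 (34.9%). That scaling moves the median of all genes to 0.86 there, to 0.61 for EpiSC against all LIF_serum arrays and to −0.52 for LS against LSFF. For 2iSB_LIF against 2i_LIF, 1 marker, Fstl1, was called within slide 2 (14.4% of all genes) and 0 in the main setting (0.0838%); each group has 1 array there, assumed to vary like the other groups. For LS against LSFF 5 markers were called. Replicate numbers did not pair the lines (same-numbered arrays correlated at −0.59 to 0.40). With the replicate block 2 were called (2.19% of all genes, against 8.46%), the other counts of called markers staying within 1.5 times the main count. Leaving out 1 LIF_serum array gave 2 to 3. With normexp Lum was lost there (adjusted p = 0.068), and with the authors' log2 values Dcn (0.086). With the slide as a block Twist1 was called lower in both ground-state groups than in LIF_serum and higher in EpiSC than in both.

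Twist1 turned round most. EpiSC minus LIF_serum was 0.48 with median centring, 0.33 with quantile normalization, 0.24 with the authors' log2 values, 0.44 with the slide block, 0.28 within slide 2, and 0.022, 0.090, 0.017 and 0.12 without LIF_serum array 1, LIF_serum array 2, EpiSC array 2 or EpiSC array 4 (−0.26 to 0.12 over all such fits). EpiSC minus LS was 0.38, 0.13, 0.042 and 0.82 under the first 4 settings. With median centring Pdgfrb, LS minus LSFF, was −0.16. With the slide block LS minus LSFF was −0.54 for Twist1 and −0.96 for Fstl1, and EpiSC minus LS was −0.11 for Thy1. Within slide 2, 2iSB_LIF minus LIF_serum was 1.65 for Lum and 0.20 for Fap, and 2iSB_LIF minus 2i_LIF was 0.015 for Dcn, 1.70 for Lum, 0.33 for Fbn1, 0.35 for Fap, 0.073 for Postn and 0.057 for Twist2. The difference between these ground-state groups was 0.16 for Postn and 0.0027 for Twist2 with quantile normalization, and 0.052 for Twist2 with the authors' log2 values. With 1 array left out it ranged over −0.60 to 0.35 for Dcn, −0.56 to 0.071 for Twist1, −0.95 to 0.037 for Lum, −1.26 to 0.046 for Fstl1 and −0.13 to 0.050 for Twist2. Of these readings, those of Lum and Fap within slide 2 and those of Dcn, Lum, Postn and Twist2 between the ground-state groups are not well above background on either side, so their signs give no order. None of the reversed differences was called, and the cause was not tested. Signal over background limits Dcn, Lum, Postn, Fap and Twist2, which are known only as bounds in several groups.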
